A study of Mus musculus with 54 samples.

Results

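The CC chemokines measured here are 9 ligand genes, Ccl2, Ccl3, Ccl4, Ccl5, Ccl6, Ccl7, Ccl9, Ccl12 and Ccl22, taken by symbol from a count table of 16632 genes. All 9 were in the table and all 9 were among the 13169 genes that passed the filter on low counts. The cells were primary microglia from neonatal C57BL/6 mice, loosened from an astrocyte layer and cultured in medium with L929 supernatant, per the labels' protocols. No group carried a genetic alteration. Untreated cells were compared with cells given 1 µM Atto-488-labelled alpha-synuclein (aSyn), the neuronal protein that aggregates in Parkinson's disease, for 14 h. aSyn-treated donors were mixed with acceptors, which had received CellTracer Violet dye and no aSyn, for 15, 30, 60, 150 or 300 min, and both populations were recovered by flow sorting. Donor and acceptor libraries labelled 0 min were also given, and the labels do not say how these were made. Donors and acceptors therefore differed in aSyn with its fluorophore, in the violet dye and in plating, and these cannot be told apart. Acceptors differed from untreated cells in dye and mixing, which also cannot be told apart. The labels do not say whether untreated cells and cells given aSyn alone were sorted. A difference in sorting from these cells is therefore possible and cannot be told apart either.

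CC chemokines are small secreted proteins with adjacent cysteines near the amino terminus. They bind G protein-coupled receptors on leukocytes and direct their migration. Ccl2, Ccl7 and Ccl12 act on CCR2 and recruit monocytes. Ccl3 and Ccl5 act on CCR1 among other receptors, Ccl4 attracts T cells and monocytes, Ccl6 and Ccl9 are rodent ligands of CCR1, and Ccl22 acts on CCR4 of T cells. Microglia are a main source of several of these ligands in the inflamed brain, and many of the genes are targets of NF-κB or interferon signalling.

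The 54 libraries held between 7807389 and 15537493 counts and carried 1 of 4 replicate numbers in their titles. A replicate here means all libraries with the same number, and the labels do not say what the number marks. Groups had 3 or 4 units each, where a unit is 1 library or the sum of 2 untreated libraries with the same number. The labels give passage 3 for replicate 1, passage 1 for replicate 2 and passage 2 for replicates 3 and 4. Passage therefore goes with the replicate number, and the 2 cannot be told apart. The labels do not say that the numbers are separate cultures, so p-values measure the spread between these samples. In the summed level of 10 microglial markers, units ranged from 1562 to 5573 CPM (the count of a gene scaled to a common library total), and replicate 4 was lowest, with 1785 CPM in aSyn-treated cells against 3650 CPM in its untreated cells. The 8 astrocyte markers summed to 7.59 to 138.6 CPM and were highest in untreated cells of replicates 3 and 4. Of lymphocyte markers 1 of 5 was in the table, of neutrophil markers 2 of 5, and the endothelial marker Cldn5 was not. Replicate 4 also carried library numbers apart from the other 3 and the most Rn45s ribosomal RNA precursor, 13.4 to 22.3% of counts, against 1.42 to 13.5% elsewhere. In bulk RNA, more RNA per cell and more cells of a kind cannot be told apart.

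Of the 9 genes, 8 lie on mouse chromosome 11 and Ccl22 lies on chromosome 8, in GENCODE vM21 coordinates of GRCm38. On the plus strand are Ccl2 (chr11:82035571-82037453), Ccl7 (chr11:82045712-82047525), Ccl12 (chr11:82101845-82103400), Ccl4 (chr11:83662584-83664683) and Ccl22 (chr8:94745590-94751699). On the minus strand are Ccl5 (chr11:83525778-83530518), Ccl9 (chr11:83572919-83578636), Ccl6 (chr11:83587882-83593087) and Ccl3 (chr11:83647844-83649355). The libraries read the 3′ end of transcripts in 50-base reads. Each 50-base window in the last 500 bases of a member's longest coding transcript was unique to that gene among the annotated transcripts. Ccl6 overlaps E230016K23Rik on the other strand, which had 198 counts over all libraries against 121615 for Ccl6, and Ccl2 overlaps Gm17268 on the other strand.

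The RefSeq promoter table (GRCm38.p6) held Ccl3, Ccl6, Ccl9, Ccl12 and Ccl22. The 100 bases before the start of Ccl12, the only CCR2 ligand in that table, of the co-varying neighbours Ccl6 and Ccl9, and of Ccl3 are shown 5′ to 3′ on the gene's strand, with matches to the searched motifs in capitals.
Ccl12 (chr11:82101745-82101844): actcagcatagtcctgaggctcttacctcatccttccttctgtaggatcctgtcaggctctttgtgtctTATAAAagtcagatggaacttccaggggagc
Ccl9 (chr11:83578637-83578736): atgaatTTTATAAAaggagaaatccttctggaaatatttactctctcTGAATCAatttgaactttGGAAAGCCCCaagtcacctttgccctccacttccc
Ccl6 (chr11:83593088-83593187): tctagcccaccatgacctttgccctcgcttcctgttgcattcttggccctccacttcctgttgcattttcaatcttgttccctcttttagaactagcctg
Ccl3 (chr11:83649379-83649478): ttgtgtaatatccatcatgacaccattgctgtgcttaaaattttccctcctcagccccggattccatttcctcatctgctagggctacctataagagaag
The motifs, searched on both strands of the 250 bases before each start, were the TATA box TATAAA, the AP-1 motif TGANTCA and the NF-κB consensus. They occurred in 12.4%, 6.75% and 7.25% of 32851 promoters, respectively. Ccl12 held 1 TATAAA on its own strand. Ccl9 held 3 matches to TATAAA. Of these, 2 on opposite strands overlap and are shown, and 1 lies further from the start on the opposite strand. Ccl9 also held 1 AP-1 site, which fits the motif on both strands, and 1 NF-κB match on the opposite strand. Ccl3, Ccl6 and Ccl22 held none of these letters in this window.

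Exposure to aSyn alone was compared first. Ccl4 was lower in aSyn-treated than in untreated cells in all 4 replicates, and Ccl5 and Ccl9 were higher in all 4. Ccl3 was lower in all 4 as well, with ratios of treated to untreated CPM from 0.387 to 0.974. Ccl2, Ccl6, Ccl7 and Ccl12 were higher in 3 of 4 and lower in replicate 2, and Ccl22 was higher in 2 of 4. The share of all genes with the same direction in all 4 replicates was not counted. The edgeR quasi-likelihood test without a term for the replicate called 0 of 9, against 2.5% of all genes tested. Calls were made where the p-value after Benjamini-Hochberg adjustment was under 0.05. The unadjusted p was under 0.05 for 3 of 9, and the share of all genes at that level was not counted. DESeq2 called 1 of 9, Ccl5, and its share over all genes is not given here. Libraries of the same replicate deviated together, and with the replicate as a block edgeR called 4 of 9, against 19.2% of all genes. Ccl5, Ccl7 and Ccl9 were higher, as were 8.95% of all genes, and Ccl4 was lower, as were 10.2%. The median log2 fold change of the 9 was 0.73 in that fit, beside -0.05 over all genes tested.

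**Figure D1:**
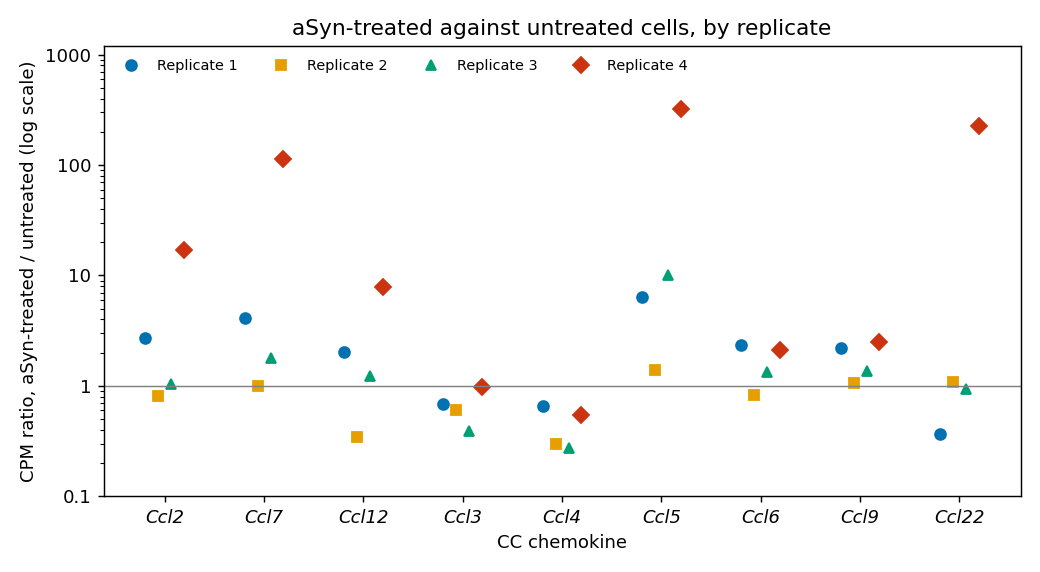
Ratio of CPM in aSyn-treated to untreated cells (log scale) for each CC chemokine, with 1 point per replicate and a line at equal levels. The 4 points of Ccl4 lie below the line and those of Ccl5 and Ccl9 above it, and replicate 4 gives the highest point for each gene except Ccl4 and Ccl6. The ratios of Ccl22 rest on 1 to 8 counts in untreated cells.

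Ccl4, an attractant of T cells and monocytes, was at 362, 720, 590.2 and 239.4 CPM in untreated cells of replicates 1 to 4 and at 239.5, 213, 162 and 129 CPM in aSyn-treated cells. Within each replicate the treated unit was lower, although the groups overlap narrowly, since the untreated unit of replicate 4 lay just under the treated unit of replicate 1. With the block the log2 fold change of Ccl4 was -1.36, with an SE of 0.29 and an edgeR adjusted p of 0.000841. It was called without each replicate in turn in that fit, with values from -1.53 to -1.10. Its neighbour Ccl3, a ligand of CCR1, was at 499, 672, 608 and 287 CPM in untreated and 343, 403, 235.4 and 279.6 CPM in treated cells. Ccl3 was lower in 4 of 4 replicates but was not called (log2 fold change -0.75, SE 0.28, edgeR adjusted p 0.0524 with the block). In replicate 4 the Ccl3 levels were nearly level.

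Ccl5, a ligand of CCR1 also known as RANTES, was at 55.1, 1469, 164 and 42.04 CPM in untreated cells of replicates 1 to 4. In aSyn-treated cells it was at 349.8, 2066, 1659 and 13549 CPM. The ratio was 6.35, 1.41, 10.1 and 322, so the direction was shared and the size was not. The treated unit of replicate 1 lay below the untreated unit of replicate 2. With the block the log2 fold change of Ccl5 was 2.51 (SE 0.72, edgeR adjusted p 0.0113), and without it the value was 3.35 (SE 1.26, edgeR adjusted p 0.149). The call with the block was lost without replicate 1 or without replicate 3.

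**Figure D2:**
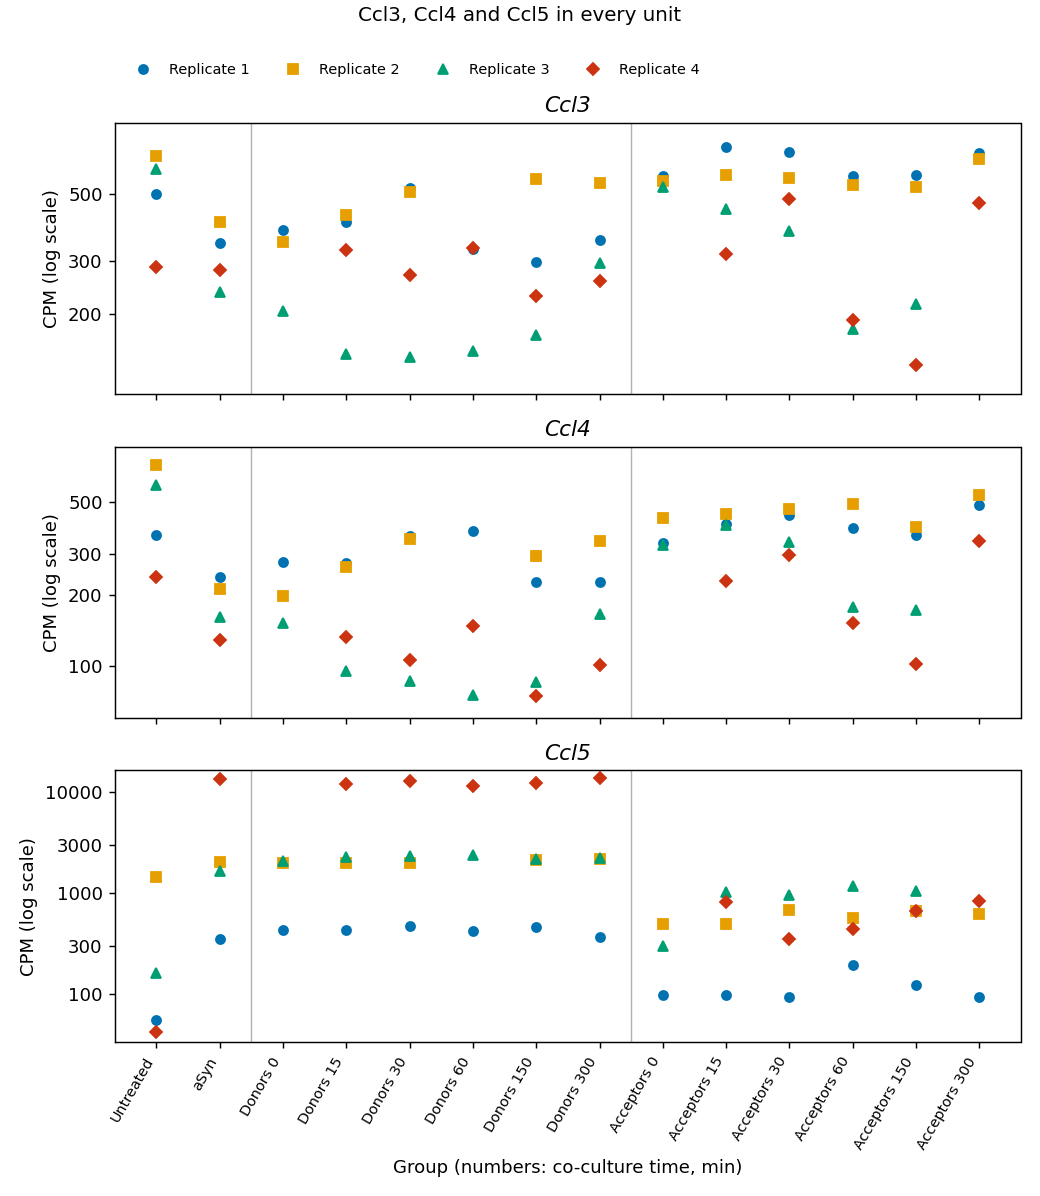
CPM (log scale) of Ccl3, Ccl4 and Ccl5 in each of the 14 groups, 1 point per replicate and group, with vertical lines between single cultures, donors and acceptors. Ccl5 lies between 11645 and 13779 CPM in co-cultured donors of replicate 4, above every other unit except that replicate's aSyn-treated cells.

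Ccl9 was at 906, 1714, 954 and 698.5 CPM in untreated and 1999, 1824, 1301 and 1727 CPM in aSyn-treated cells. Its log2 fold change was 0.73 with the block (SE 0.21, edgeR adjusted p 0.0144), a call lost without replicate 1 or without replicate 4. Ccl6, encoded beside it, was at 135, 264.3, 83.3 and 129.9 CPM in untreated and 317, 217, 111 and 275 CPM in treated cells. It was higher in 3 of 4 replicates and lower in replicate 2, and was not called (log2 fold change 0.58, SE 0.25, edgeR adjusted p 0.105 with the block). For both genes replicate 2 had the highest untreated unit and the smallest treated-to-untreated ratio.

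The CCR2 ligands showed the same split between replicates. Ccl7 was at 4.64, 58.6, 13.9 and 1.58 CPM in untreated and 19.2, 57.9, 25.05 and 180 CPM in treated cells, a ratio of 114 in replicate 4 and 0.989 in replicate 2. Its log2 fold change with the block was 1.57 (SE 0.57, edgeR adjusted p 0.0463), and this call was lost when any 1 of the 4 replicates was left out (edgeR adjusted p 0.0501 to 0.191). Ccl2, the monocyte chemoattractant protein, was at 21.7, 133, 75.2 and 32.9 CPM in untreated and 58.4, 109, 78.7 and 560.05 CPM in treated cells. Only the treated unit of replicate 4 lay above all untreated units of Ccl2 (log2 fold change 0.82, SE 0.52, edgeR adjusted p 0.285 with the block).

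Ccl12, a mouse CCR2 ligand, was at 11.2, 127, 29.6 and 4.75 CPM in untreated and 22.7, 43.8, 36.3 and 37.7 CPM in treated cells. It was higher in 3 replicates and lower in replicate 2, and the sign of its fitted change turned with the model, -0.30 without and 0.25 with the block. Ccl22 had 1 to 8 counts in each untreated unit and 4, 2, 1 and 97 counts in treated cells of replicates 1 to 4. In replicate 4 the CPM ratio was 224.6, with an exact 95% binomial interval of 39.4 to 8961 that covers counting error only. Without replicate 4 the fitted change of Ccl22 was -0.87.

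Replicate 2, the only one at passage 1 per the labels, had the highest untreated level of all CC chemokines except Ccl22. Its 2 untreated libraries gave 97.4 and 153 CPM of the library total for Ccl2 and 1304 and 1497 CPM for Ccl5, so both libraries were high. In replicate 4 the 2 untreated libraries gave 19.4 and 43.2 CPM for Ccl2 and, in the same order, 56.6 and 26.4 CPM for Ccl5, so the library with less Ccl2 had more Ccl5. Astrocyte markers moved with the same comparison. Their sum was 11.3, 18.8, 77.6 and 138.6 CPM in untreated and 13.9, 11.2, 16.7 and 29.3 CPM in treated cells. With the block 5 of 8 were called lower. In that fit 8.95% of all genes were called higher and 10.2% lower. Of the 10 microglial markers, 1 was called higher and 3 lower with the block. Of the oligodendrocyte markers 2 of 6 and of the neuron markers 1 of 4 were called lower with it. The endothelial marker Pecam1 was called higher without and with the block, and the neutrophil marker Camp with it, 1 of 3 and 1 of 2 tested. The neutrophil markers summed to 0.295, 0.284, 1.35 and 7.68 CPM in treated cells of replicates 1 to 4, highest in replicate 4, and to 0.202, 0, 0.514 and 0.189 CPM in untreated cells. The part of other cells or of the passage in the chemokine levels was not tested.

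In the fit with 1 unit per replicate for donors and for acceptors (counts of 15 to 300 min summed) and the block, 2 of 9 CC chemokines were called between aSyn-treated and untreated cells, against 16.6% of all genes. These were Ccl4 (-1.32, SE 0.28, edgeR adjusted p 0.00864) and Ccl9 (0.74, SE 0.19, edgeR adjusted p 0.0215). Ccl5 (edgeR adjusted p 0.0733) and Ccl7 (0.169) were not called there. Without replicate 2 the adjusted p of Ccl4 in that fit was 0.0547, and without replicates 1, 3 or 4 that of Ccl9 was 0.101, 0.0707 and 0.0848.

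Donors and acceptors of the same replicate were next compared at the same time. There were 21 such pairs from 0 to 300 min, and the pairs with the same number are not independent, since same-numbered libraries deviated together. Ccl7, Ccl12 and Ccl5 were higher in donors in 21 of 21 pairs, and Ccl2 in 20 of 21. Ccl4 was lower in donors in 21 of 21 pairs and Ccl3 in 17. Ccl6 was higher in 14, Ccl9 in 16, and Ccl22 in 14 of 21 pairs. Such counts of pairs were not made over all genes.

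**Figure D3:**
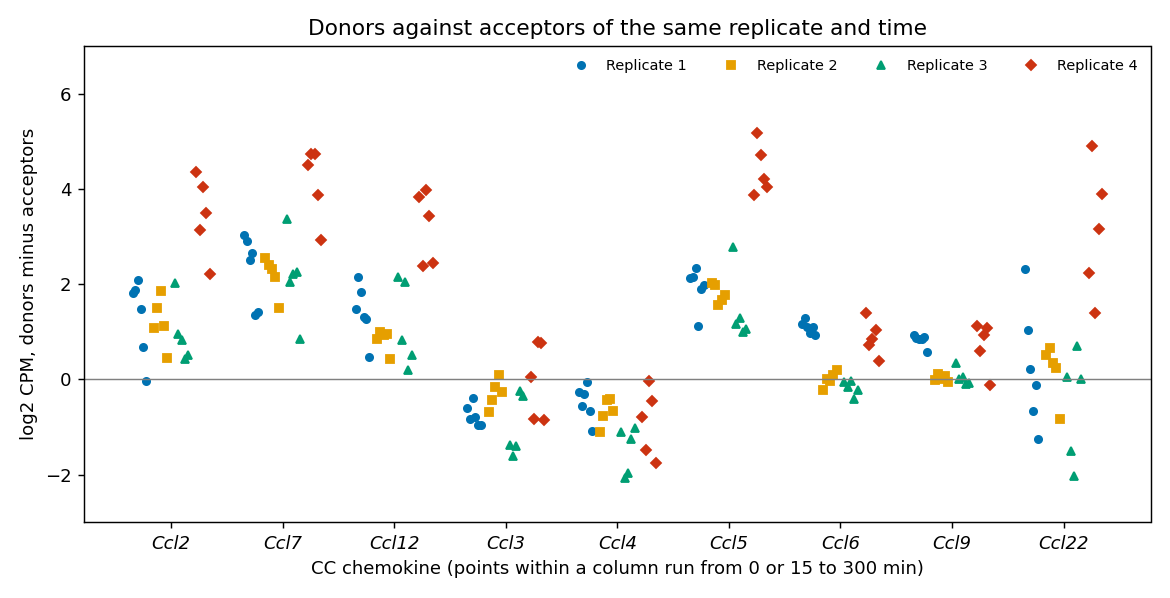
Difference in log2 CPM (prior count 2) between donors and acceptors of the same replicate and time, for each CC chemokine. Every point of Ccl7, Ccl12 and Ccl5 lies above 0 and every point of Ccl4 below 0, and the 5 points of replicate 4 are the highest for Ccl2, Ccl12 and Ccl5.

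Ccl7, a monocyte attractant, was apart between the populations in each replicate. In donors its CPM over the sampled times had a median of 16.02 (4.56 to 20.97) in replicate 1, 58.3 (45.4 to 87.7) in replicate 2, 12.2 (8.17 to 19.8) in replicate 3 and 171 (66.3 to 233.1) in replicate 4. In acceptors the medians were 2.40 (1.60 to 3.58), 14.5 (9.83 to 19.5), 2.44 (1.77 to 4.45) and 8.54 (6.24 to 9.48). Within each replicate the lowest donor unit lay above the highest acceptor unit. The times of 1 replicate are not independent units. How many of all genes were apart in this way was not counted, here or for the ranges given next. The median ratio of a donor to its acceptor was 6.25, 5.05, 4.87 and 23.1 in replicates 1 to 4.

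Ccl2 was at a median of 58.9 (20.97 to 100.5), 97.9 (78.4 to 135), 35.3 (26.1 to 51.2) and 469.7 (359.8 to 691) CPM in donors of replicates 1 to 4. In acceptors it was at 21.2 (16.7 to 24.05), 44.3 (36.95 to 62.3), 18.3 (12.6 to 20.6) and 41.8 (31.5 to 78.05) CPM. The ranges overlapped in replicate 1 only, through its 300 min libraries, where donors were at 20.97 and acceptors at 21.6 CPM. Ccl12 was at 22.1 (15.9 to 24.7), 39.8 (34.07 to 57.4), 17.1 (14.8 to 24.8) and 37.3 (27.2 to 48.3) CPM in donors and 7.55 (4.22 to 17.3), 21.5 (18.9 to 42.5), 8.99 (4.26 to 13.4) and 3.87 (2.22 to 8.76) CPM in acceptors. Donor and acceptor ranges of Ccl12 overlapped in replicates 1 and 2. Donors of replicate 4 were not the highest for Ccl12, unlike for Ccl2 and Ccl7, and the large difference there came with the lowest acceptor levels.

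**Figure D4:**
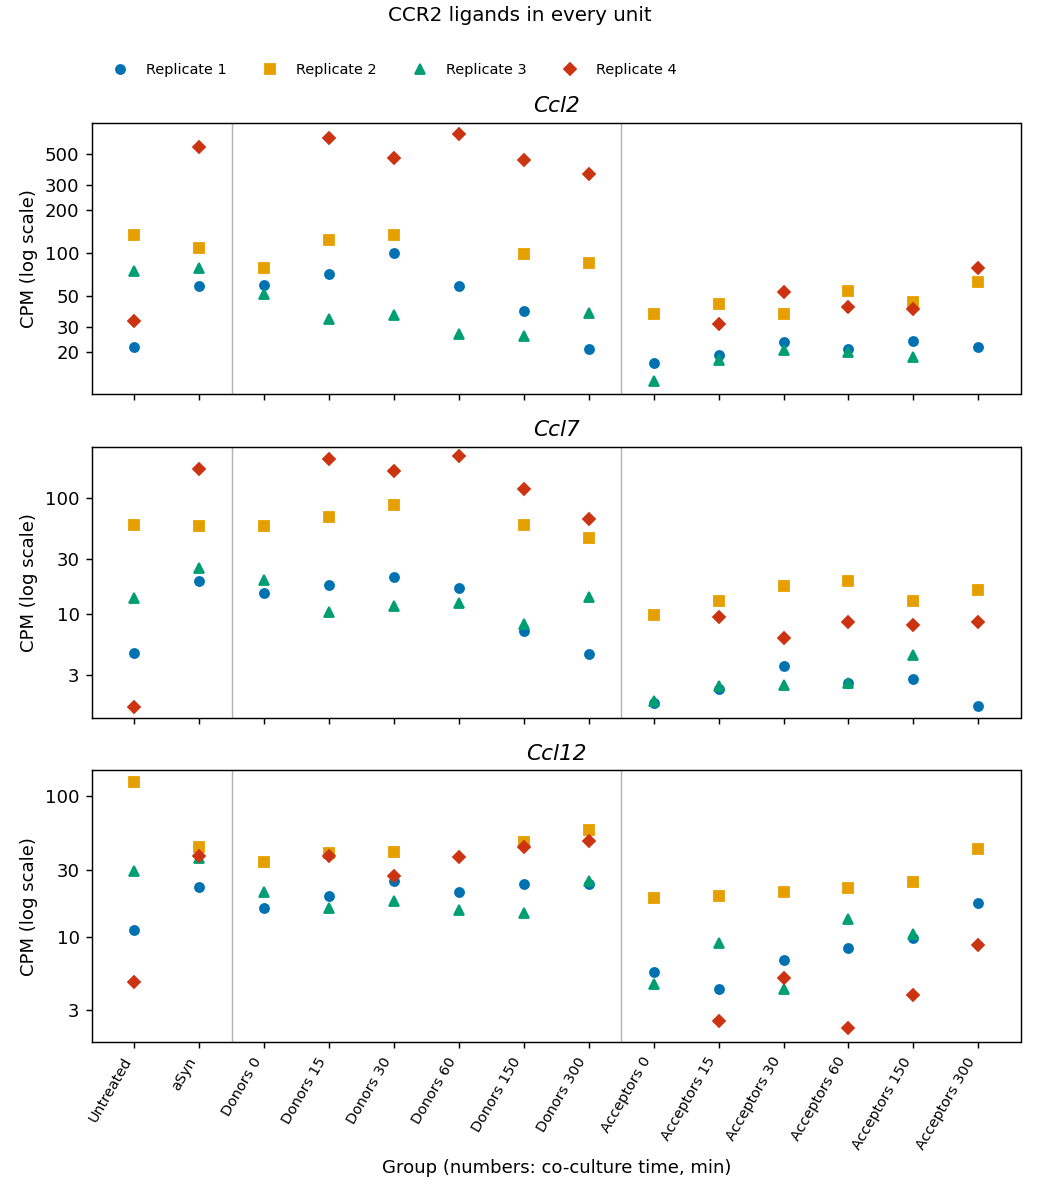
CPM (log scale) of the CCR2 ligands Ccl2, Ccl7 and Ccl12 in each of the 14 groups, 1 point per replicate and group. Donors lie above acceptors of the same replicate and time at each time for Ccl7 and Ccl12, and Ccl12 is highest in untreated cells of replicate 2, at 127 CPM.

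Ccl5 was at a median of 434.9, 2015, 2261 and 12294 CPM in donors of replicates 1 to 4 and at 98.2, 603, 1028 and 668 CPM in acceptors. Its donor ranges were narrow, from 367 to 473 CPM in replicate 1 and from 1988 to 2167 CPM in replicate 2. The donor and acceptor ranges of Ccl5 did not overlap in any of the 4 replicates, and how many of all genes did the same was not counted. In acceptors of replicate 3 Ccl5 was at 301 CPM at 0 min and between 960 and 1191 CPM at 15 to 150 min. Ccl4 was at a median of 275.6, 293, 90.4 and 105.5 CPM in donors and 397, 456, 326 and 230.8 CPM in acceptors. Its ranges overlapped in replicates 1 and 4 and not in replicates 2 and 3, where the highest donor units were at 347 and 166 CPM and the lowest acceptor units at 392 and 173 CPM. Ccl3 was at a median of 366, 509.5, 160 and 269.2 CPM in donors and 634, 560.4, 379 and 316 CPM in acceptors.

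Tested at each time without the block, 0 of 9 CC chemokines were called between donors and acceptors at 0, 15, 30, 60, 150 or 300 min, where 0.251, 0.888, 0.805, 0.418, 0.167 and 0.0304% of all genes were. The numbers with an unadjusted p under 0.05 were 1, 4, 4, 3, 3 and 2, and the shares of all genes at that level were not counted. DESeq2 called 2 at 15 min, Ccl2 and Ccl7, and 0 at the other times, and its shares over all genes are not given here. With the block, 5 of 9 were called at 15 min (9.57% of all genes) and the same 5 at 30 min (10.8%), Ccl2, Ccl7, Ccl12 and Ccl5 higher and Ccl4 lower in donors. At 60 min Ccl2 and Ccl7 were called (6.7% of genes), and Ccl7 alone at 0 min (4.28%) and 150 min (5.19%). None was called at 300 min (1.38%), where the smallest edgeR adjusted p was 0.0511, for Ccl4.

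The log2 difference of Ccl7 was 3.24 at 15 min (SE 0.63, edgeR adjusted p 0.00059) and by 2.98 at 30 min (SE 0.61, edgeR adjusted p 0.00107). It was called at both times without each replicate in turn, in the fit with the block. Ccl2 differed by 2.19 at 15 min (SE 0.55, edgeR adjusted p 0.00845), a call lost without replicate 1 or 2. Ccl12 differed by 1.88 (SE 0.51, edgeR adjusted p 0.014), lost without replicate 1. Ccl5 differed by 2.24 (SE 0.69, edgeR adjusted p 0.0329), lost without replicate 1, 2 or 3, and Ccl4 by -1.05 (SE 0.29, edgeR adjusted p 0.0161), lost without replicate 2 or 3. At 30 min Ccl2 was again lost without replicate 1 or 2, Ccl12 without 1 or 3, Ccl5 without 1 or 3, and Ccl4 without 2, 3 or 4.

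Averaged over 15 to 300 min, 6 of 9 CC chemokines were called between donors and acceptors, against 22.3% of all genes. These 6 include Ccl22, which had at most 10 counts in any unit of replicates 1 to 3 and so passed the filter on low counts mainly through the donor and aSyn-treated units of replicate 4, where it is high. Its call is not read as support, and 5 of the other 8 were called. With the block 8 of 9 were called, all but Ccl22, against 41.4%. Of these 6 were higher and 2 lower in donors, against 19.3% and 22.1% of all genes. The log2 differences without the block were 2.37 for Ccl2 (SE 0.44), 2.98 for Ccl7 (SE 0.54), 1.30 for Ccl12 (SE 0.33), 2.95 for Ccl5 (SE 0.58) and 2.38 for Ccl22 (SE 0.75), with edgeR adjusted p between 6.42e-05 and 0.0193. Ccl4 was lower by 0.81 (log2 difference -0.81, SE 0.23, edgeR adjusted p 0.00815). Ccl3 (-0.52, edgeR adjusted p 0.0503), Ccl6 (0.50, 0.065) and Ccl9 (0.33, 0.0889) were added by the block, and Ccl22 was lost with it (1.15, edgeR adjusted p 0.0999). Without replicate 4 and without the block, Ccl2 differed by 0.96, Ccl7 by 1.78 and Ccl5 by 1.53, all 3 still called, and the call of Ccl12 was lost (0.82, edgeR adjusted p 0.0919). That of Ccl4 was lost without replicate 3 (-0.64, edgeR adjusted p 0.085), and that of Ccl22 without replicate 2 or 4.

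This average treats libraries of 1 replicate at 5 times as separate units. When their counts were summed, so that each replicate gave 1 donor and 1 acceptor unit, edgeR called 0 of 9 CC chemokines without the block, against 0.0961% of all genes. The count was also 0 of 9 with the block, against 2.05%. The numbers with an unadjusted p under 0.05 were 3 and 5, beside 921 and 2504 of the 13530 genes tested in these fits. The log2 differences were of like size, 3.13 for Ccl7 (SE 1.14), 2.42 for Ccl2 (SE 0.92) and 2.85 for Ccl5 (SE 1.32) without the block. The smallest edgeR adjusted p was 0.0862, for Ccl7 with the block, and without replicate 4 it was 0.00513.

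Markers of other cells moved with this comparison too. Both neutrophil markers in the table, S100a8 and Camp, and 2 of 3 endothelial markers, Pecam1 and Kdr, were called higher in donors. The neutrophil markers summed to 4.76 to 9.40 CPM in donors of replicate 4, to 0 to 2.16 CPM in donors of replicates 1 to 3 and to 0 to 1.25 CPM in acceptors. The neuron markers called were 2 of 4, both lower in donors with the block. The endothelial markers summed to 9.05 to 32.3 CPM in donors and 3.00 to 16.1 CPM in acceptors. Of the 10 microglial markers, 4 were called higher and 4 lower in donors with the block. These marker calls also treat the times of 1 replicate as separate units. In the summed fit with the block 1 of 3 endothelial markers was called, higher in donors, beside 2.05% of all genes called. None of the 1 neutrophil, 4 neuron and 10 microglial markers tested was called there. Without the block the summed fit called none of these markers. The part of such cells in the chemokine differences was not tested.

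Ccl6 and Ccl9, the CCR1 ligands, differed between donors and acceptors by replicate. In replicate 1 donors were higher in 6 of 6 pairs for both, with median ratios of 2.13 and 1.81. In replicate 4 they were higher in 5 of 5 pairs for Ccl6 and 4 of 5 for Ccl9, with median ratios of 1.80 and 1.91. In replicates 2 and 3 the median ratios were 1.00 and 0.897 for Ccl6 and 1.00 and 1.01 for Ccl9. Acceptors at 300 min in replicate 4 had 220 CPM of Ccl6 and 1814 CPM of Ccl9, above that replicate's acceptors at earlier times.

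**Figure D5:**
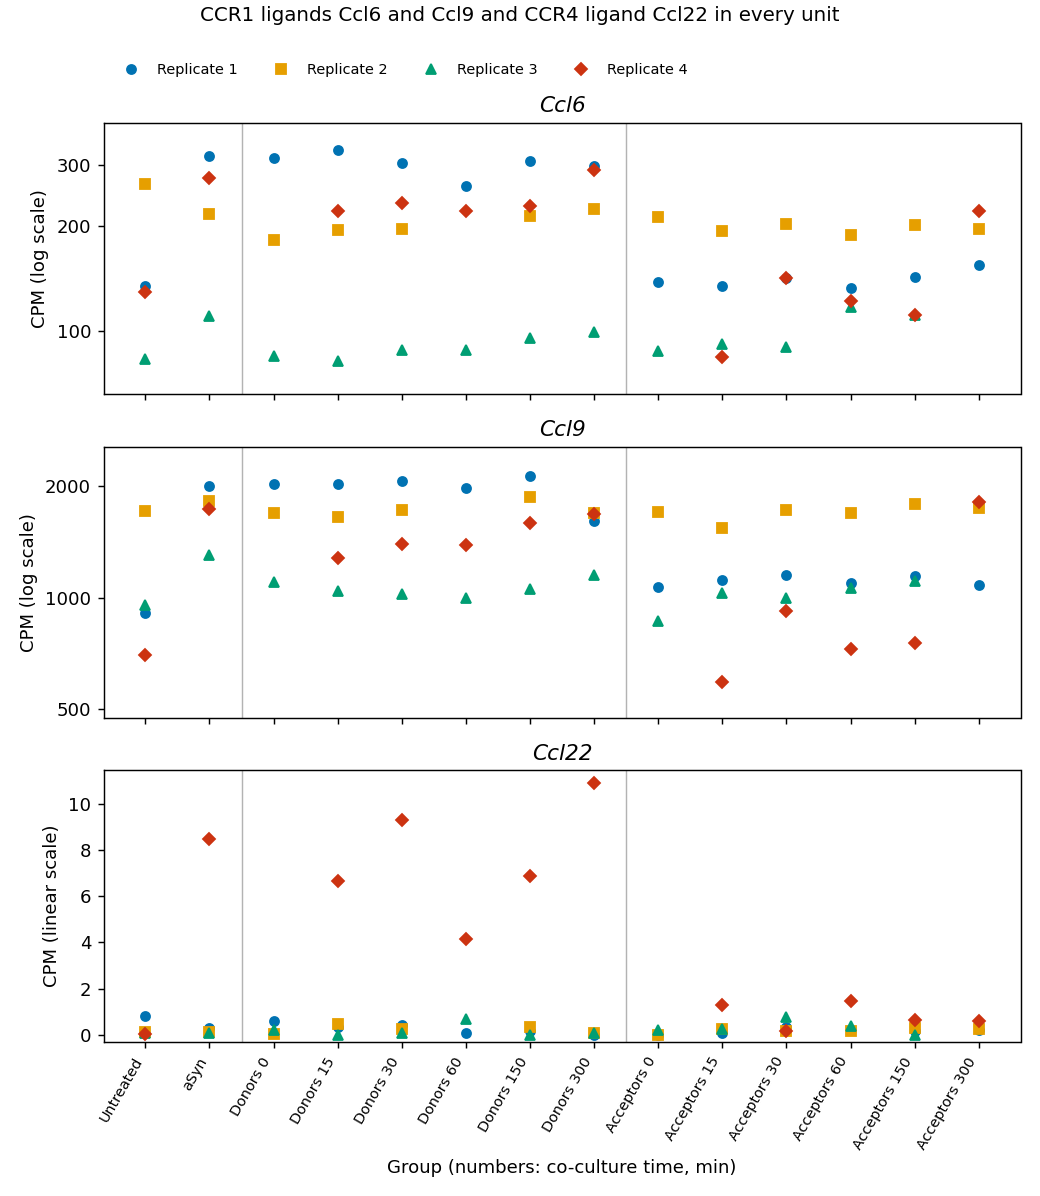
CPM of Ccl6 and Ccl9 (log scale) and Ccl22 (linear scale) in each of the 14 groups, 1 point per replicate and group. Ccl22 lies between 4.15 and 10.9 CPM in aSyn-treated cells and donors of replicate 4 and at most 1.48 CPM in all other units.

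Ccl22, which attracts T cells that carry CCR4, was detected at length only in replicate 4. Its counts were 0 to 10 in the 40 units of replicates 1 to 3, with 6 units at 0. In replicate 4 there were 53 to 139 counts in donors, 97 in aSyn-treated cells, 2 to 16 in acceptors and 1 in untreated cells. The donor minus acceptor difference without replicate 4 was -0.28 (SE 0.55, edgeR adjusted p 0.797). The call for Ccl22 was lost without replicate 2 or 4 and with the block.

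Co-cultured donors, averaged over 15 to 300 min, were compared with cells that had received aSyn and no co-culture. None of the 9 CC chemokines was called without or with the block, against 0.00759% and 0.0152% of all genes, and none had an unadjusted p under 0.05. The log2 differences with the block ran from -0.42 for Ccl7 (SE 0.40) to 0.12 for Ccl5 (SE 0.51). At single times 1 of 54 tests had an unadjusted p under 0.05 with the block, that of Ccl7 at 300 min (-1.18, edgeR adjusted p 0.534). DESeq2 called none of the 9 in the average.

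Acceptors were compared with untreated cells in the same way. Ccl12 was lower in acceptors averaged over 15 to 300 min (log2 fold change -1.84, SE 0.48, edgeR adjusted p 0.0494), the only 1 of 9 called without the block, against 0.767% of all genes. The call was lost without replicate 1, 2 or 3, with no filter, without Rn45s, with only the compared groups in the fit and in the summed fit (edgeR adjusted p 0.877). With the block 3 of 9 were called lower, Ccl12 (-1.54, SE 0.34, edgeR adjusted p 0.00246), Ccl7 (-1.61, SE 0.43, edgeR adjusted p 0.0133) and Ccl2 (-1.22, SE 0.38, edgeR adjusted p 0.0326), against 10.7% of genes called in all and 7.05% called lower. With the block and without replicate 2 none of the 9 was called, and without replicate 1 or 3 Ccl12 alone was. In the summed fit with the block none was called, against 0.85% of genes, and without replicate 4 Ccl7 was (-1.82, edgeR adjusted p 0.038).

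The replicates differed in this comparison as well. Against untreated cells the average acceptor difference in log2 CPM of Ccl7 was -0.87, -1.90, -2.23 and 2.25 in replicates 1 to 4, and that of Ccl2 was 0.00, -1.49, -1.97 and 0.50. For Ccl5 it was 1.07, -1.27, 2.68 and 3.81 (log2 fold change 0.37, SE 0.55, edgeR adjusted p 0.73 with the block). Untreated Ccl5 in replicate 4 was at 42.04 CPM and its acceptors at 356 to 843 CPM. By single time with the block, Ccl12 was lower at 15 min (-2.003, SE 0.50, edgeR adjusted p 0.0227, 2.25% of genes called) and 30 min (-1.94, SE 0.50, edgeR adjusted p 0.0211, 3.6% of genes). Ccl4 was lower at 150 min (-1.04, SE 0.29, edgeR adjusted p 0.0278, 4.78% of genes).

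Markers of other brain cells moved with this comparison. The 8 astrocyte markers summed to 11.3 to 138.6 CPM in untreated cells and to 7.59 to 42.3 CPM in acceptors, and with the block 6 of 8 were called lower in acceptors. Of the 6 oligodendrocyte markers 5 were called lower in that fit, where 7.05% of all genes were. In the summed fit with the block, which called 0.85% of all genes, 2 of 8 astrocyte and 2 of 6 oligodendrocyte markers were called lower. Without the block the summed fit called none of them. With the block, between donors and acceptors none of the 8 astrocyte markers and 1 of the 6 oligodendrocyte markers was called, beside 41.4% of all genes. The part of these cells in the acceptor levels of Ccl12, Ccl7 and Ccl2 was not tested.

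Over the 6 co-culture times no CC chemokine was called as changing in donors (0.0607% of all genes without the block, 0.577% with it) or in acceptors (0.00759% and 0.137%). DESeq2 called none in either population. None was called for a donor-acceptor difference that changed with time (0 and 0.0456%). The smallest unadjusted p-values were in acceptors with the block, 0.0281 for Ccl3 (edgeR adjusted p 0.671) and 0.0478 for Ccl4 (0.75). In acceptors of replicate 3 Ccl3 was at 528.5, 446, 379, 177 and 215 CPM at 0, 15, 30, 60 and 150 min. In acceptors of replicate 4 it was at 316, 482, 191, 135 and 469 CPM at 15, 30, 60, 150 and 300 min, so the order of times differed between them. In replicates 1 and 2 it stayed between 530.5 and 722 CPM. Ccl12 in acceptors was highest at 300 min in each of the 3 replicates sampled then, at 17.3, 42.5 and 8.76 CPM, and its edgeR test gave an unadjusted p of 0.153 with the block.

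The share of variance in log2 CPM that went with the replicate was 56.7% for Ccl6, 50.7% for Ccl22, 46.6% for Ccl3, 42.7% for Ccl4, 41.4% for Ccl2, 39.2% for Ccl5, 37.6% for Ccl9, 34.04% for Ccl7 and 24.6% for Ccl12. The group took 47.9% for Ccl12, 46.9% for Ccl7, 43.7% for Ccl5 and 42.8% for Ccl4, and 11.5% for Ccl22. Over all genes tested the medians were 33.9% for the replicate and 24.95% for the group. By group mean the levels of Ccl7 ran from 4.44 ± 4.66 CPM in acceptors at 0 min to 87.5 ± 126 CPM in donors at 60 min (SD, n = 3 each). Those of Ccl12 ran from 8.83 ± 7.69 CPM in acceptors at 15 min to 43.2 ± 57.1 CPM in untreated cells (SD, n = 4 each). Those of Ccl4 ran from 170 ± 108 CPM in donors at 150 min to 478 ± 217 CPM in untreated cells (SD, n = 4 each). For these 3 genes, neighbouring groups in the order of means differed by less than the larger of their SDs.

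After the mean of each replicate was removed from log2 CPM, the correlations of the CC chemokines over the 52 units ran from -0.63 to 0.95. These units share replicates, and the correlations are descriptions. Pearson's r was 0.95 for Ccl2 and Ccl7, 0.93 for Ccl6 and Ccl9, 0.89 for Ccl2 and Ccl12, 0.85 for Ccl5 and Ccl7, and 0.85 for Ccl3 and Ccl4, which are neighbours on opposite strands. It was 0.83 for Ccl7 and Ccl12 and between 0.62 and 0.79 for the other pairs among Ccl2, Ccl5, Ccl6, Ccl7, Ccl9 and Ccl12. For Ccl3 and Ccl4 with each of the other 7, r was below 0, from -0.01 for Ccl3 and Ccl22 to -0.63 for Ccl4 and Ccl5. Without removal of the replicate means, r was 0.32, 0.31 and 0.10 for Ccl3 with Ccl6, Ccl9 and Ccl12. It was then 0.18 and 0.21 for Ccl4 with Ccl6 and Ccl9, and the rest of these pairs stayed negative. Among 9118 genes with a mean of at least 5 CPM, the closest to Ccl12 were Cmpk2, Nmi and Ifih1 (r 0.95, 0.94 and 0.94), genes known as interferon-induced. The closest to Ccl5 were Saa3, C3 and Aoah (0.98, 0.98 and 0.97), of which Saa3 is an acute-phase protein and C3 is complement component C3. Closest to Ccl7 was Nod1 (0.90), to Ccl2 Ifit1bl1 (0.89), to Ccl6 Clec4a1 (0.88), to Ccl9 Cd52 (0.88), to Ccl4 Spred1 (0.80), to Ccl22 Ppp4r2 (0.76) and to Ccl3 Plk2 (0.72).

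Of 14 other CC ligands 5 were in the table and 4 were tested. Ccl8 and Ccl24, a ligand of CCR3, were the 2 of 4 called in aSyn-treated against untreated cells with the block, both higher in treated cells, in the fit that called 19.2% of all genes. Their means were 71.01 against 12.04 CPM for Ccl8 and 3.52 against 0.869 CPM for Ccl24, and neither was called without the block. Both were called higher in donors than in acceptors without the block, where 22.3% of all genes were called (1.83, SE 0.47, edgeR adjusted p 0.00365, and 2.23, SE 0.38, edgeR adjusted p 2.91e-05). In the summed fit with the block Ccl24 remained called (edgeR adjusted p 0.0134).

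Among 14 CC receptors 11 were in the table and 8 were tested. Ccr1, the receptor of Ccl3, Ccl5, Ccl6 and Ccl9, was the 1 of 8 called in aSyn-treated against untreated cells, at 12.4 against 1.67 CPM (log2 fold change 2.88, SE 0.63, edgeR adjusted p 0.00565), where 2.5% of all genes were called. It was also higher in donors than in acceptors, at 11.97 against 2.26 CPM (2.39, SE 0.29, edgeR adjusted p 5.07e-08), a call kept in the summed fit with the block (2.22, edgeR adjusted p 0.00119). Ccr2, the receptor of Ccl2, Ccl7 and Ccl12, was at 2.61 and 1.82 CPM and was not called (edgeR adjusted p 0.806). Ccr7 and Ccrl2 were called higher in donors than in acceptors without the block, and with the block Ccr3 was added. In the summed fit with the block Ccrl2 and Ccr3 were not called (edgeR adjusted p 0.649 and 0.194). Ccr7 was at 0 in 39 of 52 units and did not pass the filter of that fit, so its call is not read as support.

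Of 23 tested genes of receptor signalling, 1 was called in aSyn-treated against untreated cells without the block, the PI3-kinase subunit Pik3cg, which was lower (-0.72, edgeR adjusted p 0.048). With the block 2 were higher, Pik3r5 and the GTPase Rac2, and 5 lower, Gnai1, Gnai2, Pik3cg, Rac1 and Elmo1, where 8.95% of all genes were higher and 10.2% lower. Of 23 upstream regulators edgeR called 0 without the block. There 8 had an unadjusted p under 0.05, and the share of all genes at that level was not counted. With it 8 of 23 were higher and 1, Jun, lower, in the fit where 8.95% of all genes were higher and 10.2% lower. Those higher were the NF-κB subunits Nfkb2 and Rel, the IκB-family genes Nfkbib, Nfkbie and Bcl3, the NF-κB inhibitor Tnfaip3, Cebpb and the cytokine Il1b (3.29, SE 0.61, edgeR adjusted p 0.000166). The median log2 fold change of the 23 regulators with the block was 0.38, beside -0.05 over all genes tested.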

How the data were processed

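The authors deposited raw counts per gene symbol for 54 libraries, per the file headers, and these counts were used as deposited. STAR, Partek, DESeq2 and mm10 are named in the submitters' processing notes, without versions or roles, and use of strand is not given in the sources used here. Libraries were QuantSeq forward 3′ libraries, per the labels' protocols. The 2 untreated libraries of replicate 2 and of replicate 4 were summed, which left 52 units. Counts were tested with edgeR 4.0.16 (R 4.3.3), the quasi-likelihood F test over 14 groups, TMM factors, and genes kept by filterByExpr at its minimum count, set to 10. P-values were Benjamini-Hochberg adjusted over 13169 genes and called under 0.05. CPM is on TMM-scaled totals and log2 CPM has a prior count of 2. Pairing comes from the number shared in the titles: correlations of same-numbered deviations were 0.199 to 0.764 over 19 comparisons. Alternatives were the replicate block, RLE factors, no filter, 6 untreated libraries, no Rn45s, only the groups compared, each replicate left out, and DESeq2 1.42.0. Fits of counts summed per replicate, and the block without each replicate, were chosen after seeing the data. The named genes were the 9 members, the lists of other ligands, receptors, signalling genes, regulators and cell type markers, and the 3 genes most correlated with each member, of which the closest is given for most. Members and lists were chosen with earlier results of these data known. Scripts were tested on simulated data. Intervals cover counting error only. The normalized values were not used. 1 gene of the receptor list is not reported here.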

Additional observations from a re-analysis of the deposited data

Results flagged for a closer look

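In groups of 4 units, 19 of 90 combinations of gene and group held 1 unit far from the other 3, measured as its gap to the nearest unit over the whole range of the group. For independent, normally distributed values chance gives about 1 in 20 such groups. The groups here share replicates, and the share over all genes was not counted, so 19 of 90 is a description. Of the 19, 15 were units of replicate 4.

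Ccl2 in replicate 4 was at 560.05 CPM in aSyn-treated cells, 648 CPM in donors at 15 min and 454 CPM in donors at 150 min, where the other 3 replicates were at or under 123 CPM. Ccl5 in replicate 4 was at 13549 CPM in aSyn-treated cells and at 12041, 12868, 12294 and 13779 CPM in donors at 15, 30, 150 and 300 min, where the other replicates were at or under 2351 CPM. Ccl22 in replicate 4 was at 8.47 CPM in aSyn-treated cells and at 6.66, 9.29, 6.86 and 10.9 CPM in donors at 15, 30, 150 and 300 min, where the others were at or under 0.493 CPM. In acceptors of replicate 4 Ccl22 was at 1.29 CPM at 15 min and 1.48 CPM at 60 min, beside at most 0.372 CPM in the others.

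Of the 4 units outside replicate 4, Ccl5 in untreated cells of replicate 2 was at 1469 CPM, beside 42.04 to 164 CPM. Ccl12 in acceptors at 30 min of replicate 2 was at 20.9 CPM, beside 4.26 to 6.82 CPM. Ccl9 in donors at 300 min of replicate 3 was low, at 1153 CPM, beside 1611 to 1686 CPM. Ccl22 in untreated cells of replicate 1 was at 0.807 CPM, from 8 counts, beside 0.0377 to 0.131 CPM.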

How the results depend on the processing

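Of 323 recomputed counts of called CC chemokines, 275 were equal to the reported count or within 1.5 times of it, and 48 were not. Most reported counts were 0, and these stayed only where the recomputed count was also 0. Of 793 recomputed single values, 620 kept direction and side of the threshold, 89 gained a call, 53 lost one and 31 changed sign. The cause was not tested. The replicate block, which pairs libraries by replicate, moved the number called from 0 to 4 for aSyn against untreated, from 1 to 3 for averaged acceptors against untreated, from 0 to 1, 5, 5, 2 and 1 for donors against acceptors at 0, 15, 30, 60 and 150 min, and from 0 to 1 for acceptors against untreated at 15, 30 and 150 min. The block did not move the other counts beyond 1.5 times. DESeq2 gave 1 for aSyn against untreated and 2 at 15 min, and its shares over all genes are not given here. With counts summed per replicate, aSyn against untreated gave 2 with the block, and donors against acceptors and acceptors against untreated gave 0 with or without it. Acceptors against untreated also gave 0 with no filter, without Rn45s and with only the groups compared. Leaving out each replicate, over the fits with and without the block or summing, gave 0 to 4 for aSyn against untreated, 0 to 9 for averaged donors against acceptors, 0 to 3 for acceptors against untreated, 0 to 6 at 15 min and 0 to 4 at 30 min.

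The values that changed sign were those of Ccl3, Ccl5, Ccl6, Ccl12 or Ccl22 against untreated cells and Ccl22 in donors against acceptors, in log2 units. Ccl12 in aSyn against untreated was 0.25 with the block and 0.39 summed with the block. It was -0.71 to 1.13 without 1 replicate, 0.12, 1.16 and 0.27 with the block and without replicates 1, 2 and 3, and 0.24, 1.24 and 0.48 when also summed. Ccl22 in aSyn against untreated was -0.87 (without replicate 4) to 4.99 without 1 replicate, and without replicate 4 it was -0.79 with the block and -0.76 when also summed. In donors against acceptors it was -0.28 to 2.75, and -0.28 and -0.25. In acceptors against untreated, the values without 1 replicate were -0.37 to 0.065 for Ccl3, -0.23 to 2.69 for Ccl5, -0.17 to 0.17 for Ccl6 and -0.42 to 2.33 for Ccl22. With the block, Ccl3 was 0.072 without replicate 3 and 0.12 when also summed, and Ccl5 was -0.20 without replicate 3. Ccl6 was 0.0040 summed with the block and, without replicate 2, 0.16 with the block and 0.19 when also summed. Ccl22 was -0.037 with the block, -0.36, -0.36 and -0.30 with it and without replicates 2, 3 and 4, and -0.016 summed with the block and without replicate 4. Depth limits Ccl22, with 0 to 10 counts a unit outside replicate 4.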
